A study of Mus musculus with 8 samples.

Results

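Described here are 10 mouse genes that help to bring a photoreceptor back to rest after light: Guca1a, Guca1b, Gucy2e, Gucy2f, Rcvrn, Grk1, Slc24a1, Rgs9, Rgs9bp and Gnb5. They were chosen by name, as the guanylate cyclases, their activating proteins, recoverin, rhodopsin kinase, the exchanger and the RGS9 complex, and each was found as 1 of the 57010 gene identifiers counted. All 10 were among the 20457 genes that passed the filter on low counts. Guca1a had been noted as lower in every rd10 group when the genes were chosen, so its values against WT retina are a description and carry no test here.

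In the dark, cGMP holds the channels of the rod outer segment open and calcium flows in, while the exchanger encoded by Slc24a1 carries calcium out. Light closes the channels, calcium falls, and the guanylate cyclase activating proteins then switch on the retinal guanylate cyclases, which restore cGMP. In parallel, rhodopsin kinase (Grk1), held back by recoverin (Rcvrn) when calcium is high, marks the active photopigment for arrestin, and the complex of Rgs9, Gnb5 and the membrane anchor Rgs9bp speeds the shutoff of transducin. Loss of this feedback is a known cause of retinal disease, and calcium and cGMP are both disturbed where the cGMP phosphodiesterase fails.

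Poly(A) RNA was sequenced from 1 whole retina per sample, with 2 libraries in each of 4 groups: WT mice at postnatal day 15 (P15), and rd10 mice at that age, at P18 and at P21. The labels name no treatment for any group. The rd10 mice are homozygous for a mutation of Pde6b, the beta subunit of the rod cGMP phosphodiesterase, and their rods degenerate over these ages, and WT mice carry no such mutation. According to the study's methods, the controls of the rd10 mice were their wild-type littermates. The only controls were WT retinas at P15, so that genotype and age cannot be told apart in the rd10 P18 and P21 comparisons with WT.

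Total counts lay between 28076947 and 33724562 per library. The level of each gene is given as CPM, counts scaled to the size of the library after TMM normalization, and a gene was called where its log2 fold change exceeded 1 in size and edgeR's quasi-likelihood test gave an adjusted p (Benjamini-Hochberg over 20457 genes) below 0.05. The 2 libraries of a group were labelled as biological replicates. By Y-linked counts both WT P15 retinas came from females and both rd10 P15 retinas from males, so sex and genotype cannot be told apart at P15, and at P18 and P21 replicate 1 was male and replicate 2 female. One library, rd10 P18 replicate 1, stood apart from its partner in a way that followed gene length, described after the single genes. The whole-retina label held in the markers: the 10 rod phototransduction genes summed to between 20699 and 52223 CPM in every library, and the 6 lens genes to at most 4.62 CPM, with Mip at 0 throughout. The summed level of 6 retinal pigment epithelium genes was 37.3 to 141 CPM in WT retinas, 186 to 222 in rd10 retinas at P15 and 18.6 to 30.0 at P18, with 22.3 to 29.3 at P21, and its part in the differences below was not tested.

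The promoters of the activating protein Guca1a and of both cyclases are shown because these genes belong to one enzyme system. Each run is the 250 bases before the transcript start in RefSeq (GRCm38.p6), 5′ to 3′ on the gene's own strand. Capitals mark the letters TAATCC or, on the other strand, GGATTA, the core bound by the photoreceptor homeodomain factor Crx.
Guca1a promoter, chr17:47400607-47400856, minus strand: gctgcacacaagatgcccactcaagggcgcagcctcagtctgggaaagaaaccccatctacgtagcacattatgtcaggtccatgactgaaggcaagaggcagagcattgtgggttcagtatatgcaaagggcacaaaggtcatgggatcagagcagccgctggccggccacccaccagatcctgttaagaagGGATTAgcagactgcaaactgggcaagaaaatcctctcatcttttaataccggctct
Gucy2e promoter, chr11:69237023-69237272, minus strand: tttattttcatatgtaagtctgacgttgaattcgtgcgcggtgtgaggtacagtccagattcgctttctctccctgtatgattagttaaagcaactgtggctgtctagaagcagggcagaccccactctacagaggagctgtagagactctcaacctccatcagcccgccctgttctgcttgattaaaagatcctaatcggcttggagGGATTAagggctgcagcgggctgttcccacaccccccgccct
Gucy2f promoter, chrX:142196937-142197186, minus strand: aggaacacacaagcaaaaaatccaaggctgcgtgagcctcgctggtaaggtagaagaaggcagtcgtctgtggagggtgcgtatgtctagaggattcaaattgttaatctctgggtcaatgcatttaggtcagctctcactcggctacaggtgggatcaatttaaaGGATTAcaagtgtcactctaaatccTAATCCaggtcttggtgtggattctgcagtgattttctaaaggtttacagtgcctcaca

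Promoter sequence was matched for 7 of the 10 genes, all but Guca1b, Rcvrn and Rgs9bp. The Crx core lay in 4 of these 7 (Guca1a, Gucy2e, Gucy2f and Gnb5), against 6.3% of the 32851 promoters of the same length. The match in Guca1a starts 57 bases before the transcript start, the one in Gucy2e 42 bases before it, and Gucy2f holds matches at 84 and 59 bases. The letters TGCTGA or TCAGCA, contained in sites of the rod factor Nrl, lay in the Rgs9 promoter alone of the 7 and in 16.1% of all promoters. The Grk1 and Slc24a1 promoters held neither string of letters in this window.

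Guca1a, which encodes the activating protein GCAP1 (chr17:47394558-47400584, minus strand, GENCODE M21, GRCm38), was at 651 and 585 CPM in the WT retinas, 119 and 139 in rd10 retinas at P15, 259 and 196 at P18 and 203 and 261 at P21. All 6 rd10 libraries lay below both WT libraries, as the choice of the gene fixes. The mean level was 618 ± 46.8 CPM in the WT retinas and 129 ± 14.2 in rd10 retinas at P15 (SD, n = 2), which is 20.9% of the WT level on the fitted scale, a log2 difference of -2.26. The log2 difference from WT was -1.44 at P18 and -1.41 at P21, so the rd10 level was lowest at P15 and higher at the later ages.

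Both later rd10 groups lay above both rd10 P15 libraries for Guca1a. The log2 change from rd10 P15 was 0.82 (SE 0.19) at P18 and 0.84 (SE 0.19) at P21. The same rd10 P15 libraries took part in the observation by which the gene was chosen. These changes are therefore a description, and no p-value is given for them.

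**Figure D1:**
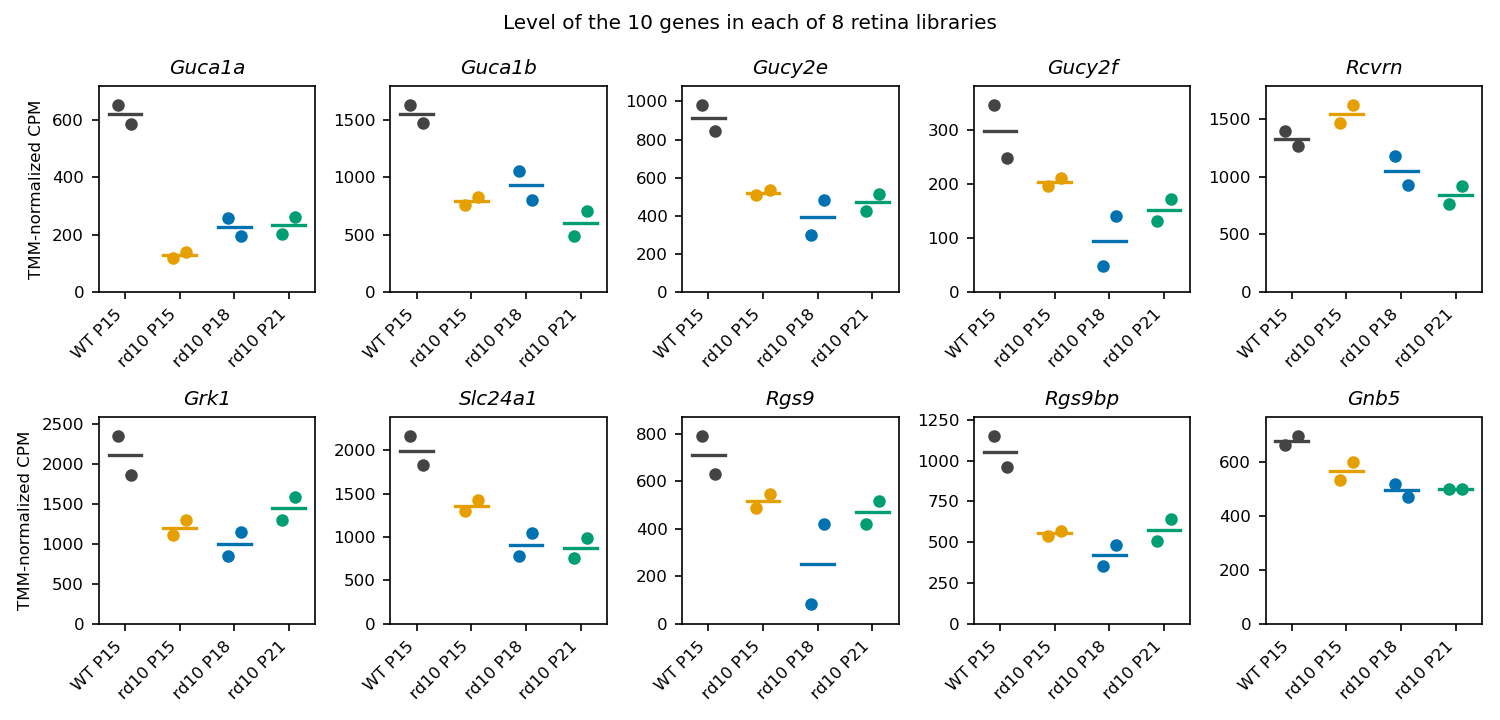
Level of each of the 10 genes (vertical axis, TMM-normalized CPM, each panel on its own scale from 0) in the 8 retina libraries, grouped by genotype and age on the horizontal axis. Points are libraries and lines are group means. Guca1a is at a mean of 618 CPM in WT retinas and 129 in rd10 retinas at P15, and at 228 and 232 at the later ages, whereas Rcvrn is highest in rd10 P15.

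Guca1b, the gene of the second activating protein, GCAP2, is the neighbour of Guca1a (chr17:47385393-47392967, plus strand). It was at 1634 and 1474 CPM in the WT retinas, 759 and 833 in rd10 retinas at P15, 1057 and 805 at P18 and 492 and 709 at P21. Every rd10 library was below both WT libraries, and the lowest levels were those at P21. Guca1b was lower in rd10 P21 than in WT P15, with a log2 fold change of -1.37 (SE 0.21, edgeR adjusted p = 0.0455). At P15 and P18 its log2 fold changes of -0.97 and -0.74 did not pass (adjusted p = 0.1 and 0.119).

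The transcripts of the activating proteins were also compared within each library, per kilobase of exon. The ratio of Guca1a to Guca1b was 1.12 and 1.11 in the WT retinas, 0.439 and 0.468 in rd10 retinas at P15, 0.686 and 0.680 at P18 and 1.15 and 1.03 at P21. The ratio was thus below WT in all 4 rd10 libraries at P15 and P18, and overlapped with WT at P21.

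Gucy2e (chr11:69218117-69237036, minus strand) encodes the retinal guanylate cyclase GC-E of rods and cones. Its level was 983 and 844 CPM in the WT retinas, 508 and 536 in rd10 retinas at P15, 301 and 483 at P18 and 427 and 517 at P21. All 6 rd10 libraries were below both WT libraries. Gucy2e was lower in rd10 P18 than in WT P15 (log2 fold change -1.22, SE 0.22, edgeR adjusted p = 0.0388). The differences from WT at P15 (-0.81, adjusted p = 0.187) and P21 (-0.95, adjusted p = 0.127) did not pass.

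Gucy2f, the X-linked gene of the second cyclase, GC-F (chrX:142081160-142196931, minus strand), was at 347 and 249 CPM in the WT retinas, 196 and 211 in rd10 retinas at P15, 47.6 and 140 at P18 and 132 and 173 at P21. The libraries of each rd10 group were again all below WT, but those of rd10 P18 lay far from each other. Its log2 fold changes of -0.55, -1.67 and -0.97 at P15, P18 and P21 did not pass the edgeR test (adjusted p = 0.717, 0.16 and 0.504). Per kilobase, Gucy2e was 2.25 to 3.04 times the level of Gucy2f in 7 libraries and 5.58 times in rd10 P18 replicate 1.

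Slc24a1 encodes the rod sodium/calcium, potassium exchanger (chr9:64922861-64951607, minus strand). It was measured at 2160 and 1828 CPM in the WT retinas, 1295 and 1424 in rd10 retinas at P15, 774 and 1048 at P18 and 757 and 989 at P21. Its levels at P18 and P21 were below both rd10 P15 libraries, which in turn were below WT. Slc24a1 was lower in rd10 P18 than in WT P15 (log2 fold change -1.13, SE 0.20, edgeR adjusted p = 0.0351). At P21 the change was of like size, -1.19 (SE 0.20), and missed the threshold (adjusted p = 0.0584), and at P15 it was -0.55 (adjusted p = 0.305).

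Rcvrn, the gene of the calcium sensor that restrains rhodopsin kinase (chr11:67695326-67703333, plus strand), went another way at P15. It stood at 1393 and 1271 CPM in the WT retinas, 1468 and 1625 in rd10 retinas at P15, 1178 and 930 at P18 and 765 and 920 at P21. Both rd10 P15 libraries were above both WT libraries, and the 4 later rd10 libraries were below them. None of its differences passed the edgeR test: against WT the log2 fold changes were 0.22 (adjusted p = 0.665), -0.34 (adjusted p = 0.344) and -0.66 (adjusted p = 0.151), and rd10 P21 minus rd10 P15 was -0.88 (SE 0.17, adjusted p = 0.081).

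Grk1 (chr8:13405081-13421951, plus strand), the rhodopsin kinase gene, had 2352 and 1869 CPM in the WT retinas, 1111 and 1295 in rd10 retinas at P15, 845 and 1151 at P18 and 1305 and 1592 at P21. Each rd10 library was below both WT libraries, with both P21 libraries above both P15 libraries. Grk1 was lower in rd10 P18 than in WT P15 (log2 fold change -1.08, SE 0.20, edgeR adjusted p = 0.0403). Its differences from WT at P15 (-0.81, adjusted p = 0.145) and P21 (-0.54, adjusted p = 0.338) did not pass.

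The kinase and its inhibitor were also compared within each library. The ratio of Grk1 to Rcvrn per kilobase was 0.200 and 0.174 in the WT retinas, 0.0896 and 0.0944 in rd10 retinas at P15, 0.0849 and 0.147 at P18 and 0.202 and 0.205 at P21. It was below WT in all 4 rd10 libraries at P15 and P18, and just above both WT libraries at P21.

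In the complex that shuts off transducin, Rgs9bp was called at one age and Rgs9 and Gnb5 at none. Rgs9bp, which tethers the complex to the disc membrane (chr7:35578993-35585582, minus strand), was at 1150 and 959 CPM in the WT retinas, 540 and 568 in rd10 retinas at P15, 355 and 483 at P18 and 504 and 642 at P21. No rd10 library reached the WT levels, and those of P18 were the lowest. Rgs9bp was lower in rd10 P18 than in WT P15, at 39.7% of the WT level (log2 fold change -1.33, SE 0.20, edgeR adjusted p = 0.0222). It did not pass at P15 (-0.93, adjusted p = 0.0945) or P21 (-0.88, adjusted p = 0.116).

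Rgs9 supplies the GTPase-activating subunit (chr11:109225355-109298129, minus strand). Its level was 789 and 632 CPM in the WT retinas, 487 and 546 in rd10 retinas at P15, 81.8 and 420 at P18 and 420 and 516 at P21. One rd10 P18 library was far below its partner and below all others, and the rest of the rd10 libraries lay close together under WT. The log2 fold changes of -0.46, -1.50 and -0.60 had standard errors of 0.68 to 0.69 and did not pass (adjusted p = 0.859, 0.343 and 0.831 in edgeR).

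Gnb5, the G protein beta subunit that stabilises Rgs9 and its relatives (chr9:75306288-75345876, plus strand), is also used by neurons of the inner retina. It was at 662 and 695 CPM in the WT retinas, 534 and 599 in rd10 retinas at P15, 519 and 470 at P18 and 499.7 and 500.1 at P21. Although every rd10 library was below WT, the log2 fold changes were small, -0.26, -0.46 and -0.44 with SE 0.13 each, and none passed (adjusted p = 0.472, 0.128 and 0.217). An antisense gene, Gm19531, shares 248 bases, or 8% of the exon bases, with Gnb5, and the strand setting of the counting is not given in the sources used here.

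**Figure D2:**
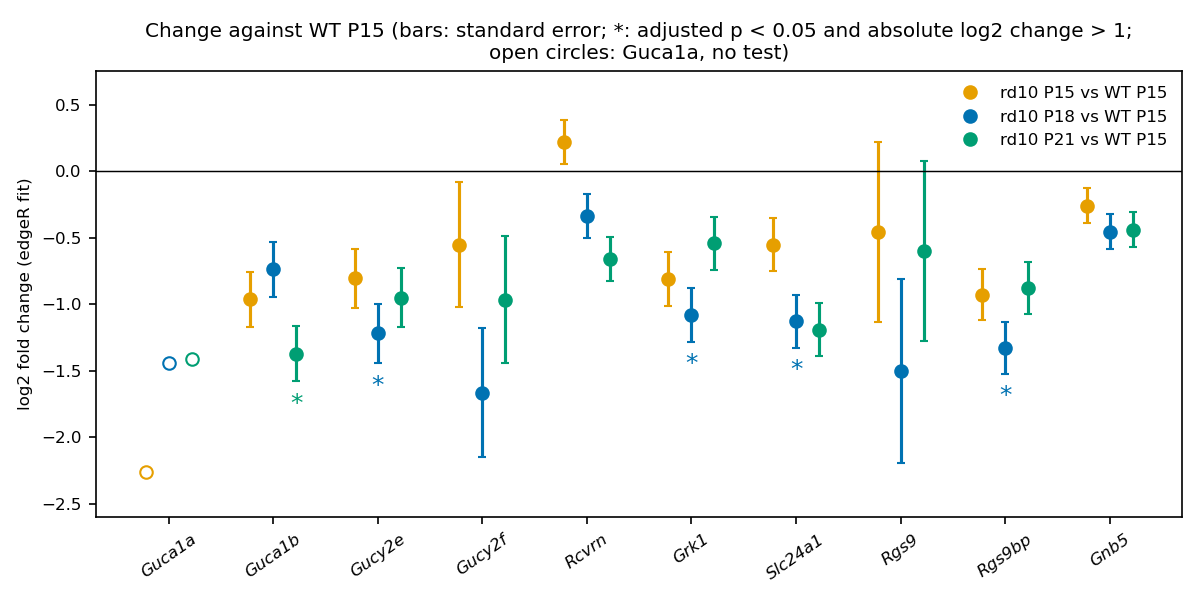
Log2 fold change of each gene (horizontal axis) against WT P15 on the vertical axis, from the edgeR fit, with orange, blue and green for rd10 P15, P18 and P21. Bars are standard errors, stars mark genes that were called, and the open circles of Guca1a have no test. The starred values are Gucy2e, Grk1, Slc24a1 and Rgs9bp at P18 and Guca1b at P21.

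Counted over the 9 genes other than Guca1a, at P15 the rd10 against WT comparison called 0, where 0.23% of all genes were called, and DESeq2 also called 0. At an unadjusted p under 0.05 there were 5 of the 9, beside 12.3% of all genes. In 8 of the 9 both rd10 P15 libraries were below both WT libraries, which was so in 24.9% of all genes, and in Rcvrn both were above them, as in 24.8% of all genes. The median log2 fold change of the 9 was -0.55, beside -0.01 over all genes.

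At P18 against WT P15, 4 of the 9 were called lower, the cyclase Gucy2e, the kinase Grk1, the exchanger Slc24a1 and the anchor Rgs9bp, beside 0.332% of all genes. In 9 of 9 both libraries were below WT (22.9% of all genes), 7 of 9 had an unadjusted p under 0.05 (17.4%), and the median log2 fold change was -1.13, beside 0.01 over all genes. Without either of the WT libraries the number called was 0, and it was 1, Rgs9bp, without either rd10 P15 library or without replicate 1 of rd10 P18. Without rd10 P18 replicate 2, which leaves the library that stood apart by gene length, it was 6, the same 4 with Gucy2f and Rgs9, and 768 of the 21945 genes then tested were called lower. With only the 4 libraries of the comparison in the fit the number was 0, with a term for sex it was 2, and DESeq2 called 5, adding Gucy2f.

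At P21 against WT P15, 1 of the 9 was called lower, Guca1b, beside 0.142% of all genes. All 9 were below WT in both libraries (24.2% of all genes) and 7 had an unadjusted p under 0.05 (11.8%), with a median log2 fold change of -0.88 beside 0.000965 over all genes. The number was 0 without either WT library, without either rd10 P15 library and without replicate 1 of rd10 P21, and 0 with a term for sex. It was 2, Guca1b and Slc24a1, without either rd10 P18 library.

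Between ages of the rd10 retina, with Guca1a included, edgeR called 0 of the 10 genes from P15 to P18 (0.591% of all genes called) and 0 of 10 from P15 to P21 (0.401%), and DESeq2 called 0 in each. At an unadjusted p under 0.05 there were 3 of 10 in each comparison, beside 12.9% and 12.8% of all genes. In both these were Guca1a, Rcvrn and Slc24a1. At P18, 7 genes lay below both rd10 P15 libraries (20.4% of all genes) and 1, Guca1a, above them (21.9%). At P21, 5 lay below (25.5%) and 2, Guca1a and Grk1, above (26%). The outcome from P15 to P18 changed without rd10 P18 replicate 2, which leaves only the library that stood apart by gene length. Guca1a was chosen on libraries that include those of rd10 P15, so its place above them and its part in each of these counts are a description. The comparisons share the rd10 P15 libraries with each other, as those above share the WT libraries.

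The 2 libraries of rd10 P18 differed by gene length across the transcriptome. The median log2 difference of replicate 1 minus replicate 2 was 0.33 in the quartile of genes with the shortest exon length and -0.435 in the quartile with the longest, while in the other groups these medians stayed between -0.024 and 0.036. The 10 genes divided by length in the same direction. Guca1a, Guca1b, Rcvrn and Gnb5, whose exons sum to 873 to 3115 bases, were higher in replicate 1, and the 6 genes from 5213 to 9197 bases, Slc24a1, Rgs9, Rgs9bp, Gucy2f, Grk1 and Gucy2e, were lower in it.

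Among the longer genes the size of the gap was not the same. The log2 difference of replicate 1 minus replicate 2 was -0.44 for Slc24a1, Rgs9bp and Grk1, -0.68 for Gucy2e, -1.56 for Gucy2f and -2.36 for Rgs9. Gucy2f and Rgs9 also have the widest spans of the genes in the genome, at 115772 and 72775 bases. In rd10 P21 the differences lay between -0.53 and -0.00107 for all 10 genes. The cause of the gap in rd10 P18 was not tested.

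**Figure D3:**
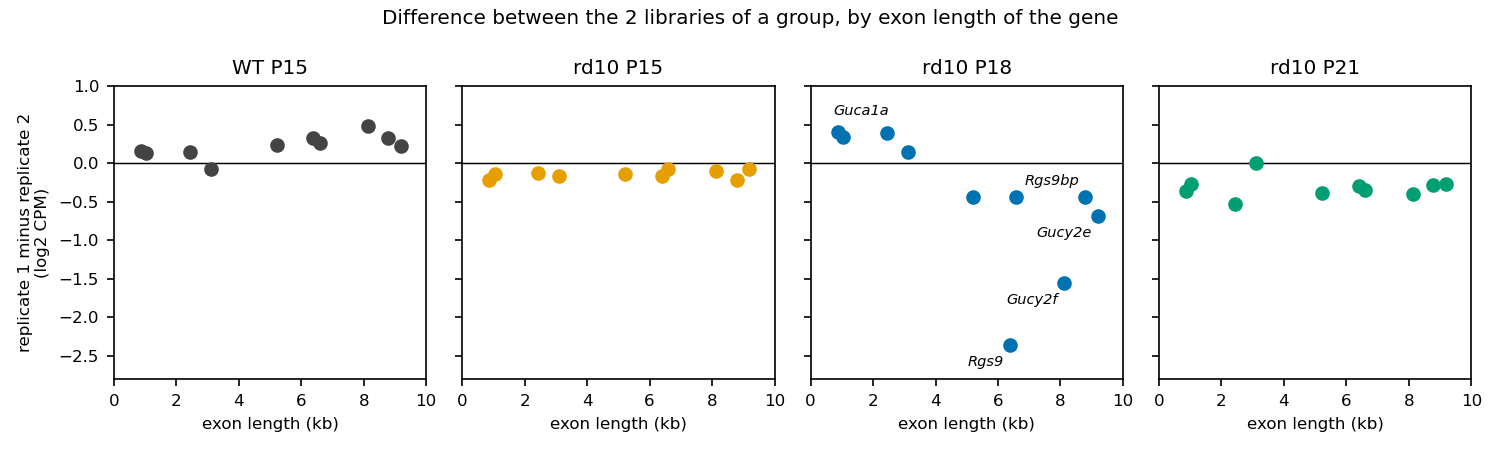
Difference between the 2 libraries of each group (vertical axis, replicate 1 minus replicate 2, log2 CPM) for the 10 genes, by the summed exon length of the gene in kilobases (horizontal axis). In rd10 P18 the points run from 0.40 for Guca1a to -2.36 for Rgs9, while in the other groups they lie between -0.53 and 0.48.

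When a trend of level on exon length was removed from each library, an alternative chosen after seeing the data, 3 of the 9 were called lower at P18, where 371 genes were called in all. These were Gucy2e (log2 fold change -1.07, edgeR adjusted p = 0.0129), Slc24a1 (-1.09, adjusted p = 0.0177) and Rgs9bp (-1.24, adjusted p = 0.00831). Grk1 then stood at -0.93 (adjusted p = 0.0198), short of the fold threshold. With a trend on the span of the gene removed instead, the same 4 genes as without it were called at P18, with 362 genes called in all. Guca1a was at -2.33, -1.68 and -1.22 against WT with the exon length trend removed, and rd10 P21 minus rd10 P15 was 1.10, values given with no test because the gene was chosen on these libraries.

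Fewer photoreceptors in a retina and less RNA per photoreceptor cannot be told apart in whole tissue. The 10 genes together took 1.14% and 1.01% of the counts in the WT retinas, 0.692% and 0.761% in those of rd10 mice at P15, 0.576% and 0.621% at P18 and 0.572% and 0.695% at P21. Each gene was also set against the rod genes of its own library, a description with no test. The measure was its log2 CPM minus the mean log2 CPM of 10 rod phototransduction genes. This ratio cannot separate these possibilities either, because the rod genes themselves were lower in rd10 retinas. Some of the genes, among them Gucy2e and Gnb5, are also used outside rods, so their ratio is not one of rods alone. The rod genes, among them Gnat1, Pde6a, Pde6b, Cnga1 and Sag, had median log2 fold changes against WT of -0.42, -0.79 and -1.05 at P15, P18 and P21, with 0, 0 and 2 of the 10 called in edgeR and 6, 6 and 10 at an unadjusted p under 0.05.

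Relative to the rod genes, Guca1a was lower than in WT at each age and least so at P21, with differences of -1.84 at P15, -0.77 at P18 and -0.39 at P21. Rcvrn was higher at each age, by 0.64, 0.34 and 0.37. At P15 7 of the 10 genes were below WT in both libraries and 1 above, and at P18 these numbers were again 7 and 1. At P21 they were 3 and 6: Guca1a, Guca1b and Slc24a1 were below, and Gucy2e, Rcvrn, Grk1, Rgs9, Rgs9bp and Gnb5 above. These counts include Guca1a, chosen for its low level in rd10, and no share over all genes was computed on this scale. The P18 differences of Rgs9 and Gucy2f, -1.24 and -1.16, were no larger than the larger SD of the 2 groups, 1.74 and 1.17. That of Gucy2e at P21, 0.0797, was also within the larger SD, 0.0876. In the rod list itself, Cnga1 was at 927 and 382 CPM in the WT retinas.

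**Figure D4:**
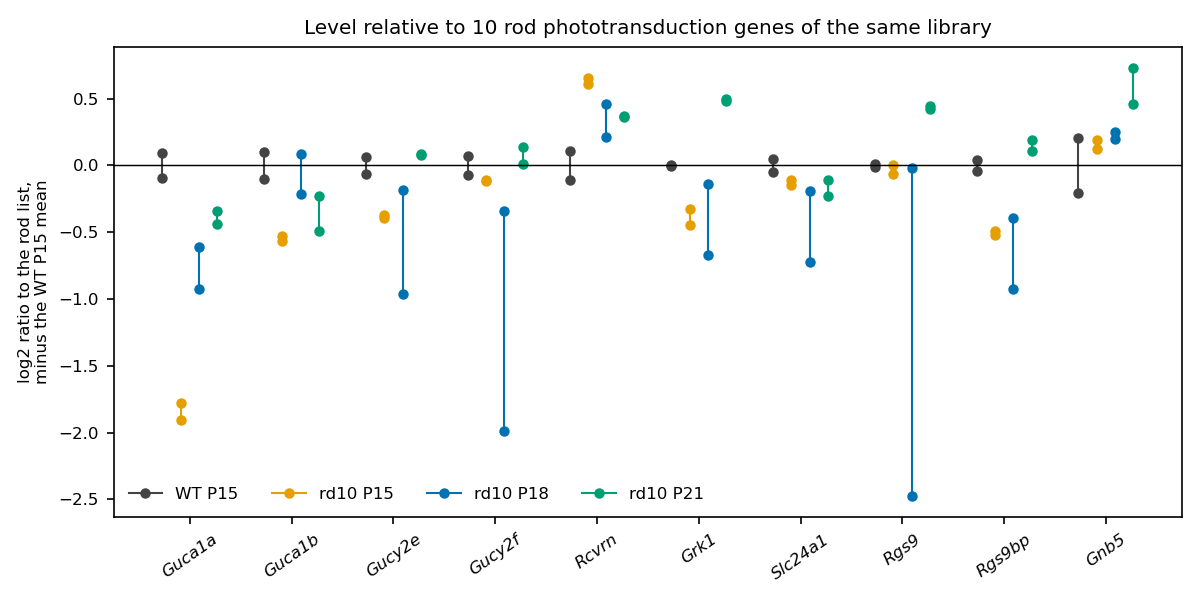
Level of each gene relative to 10 rod phototransduction genes of the same library (vertical axis, log2 ratio minus the WT P15 mean), with libraries as points joined within a group. Guca1a lies lowest in rd10 P15, at a mean of -1.84, and in rd10 P21 both points are above 0 for all genes but Guca1a, Guca1b and Slc24a1.

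With another reference, 10 genes of rod identity and structure, the values of Guca1a were -1.90, -0.70 and -0.50 and those of Rcvrn 0.58, 0.41 and 0.26. The numbers below and above WT were 7 and 1 at P15, 6 and 2 at P18, and 3 and 4 at P21. Here too no share over all genes was computed. On that scale Gucy2e and Rgs9bp no longer stood apart from WT at P21.

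Between genes, levels were compared only per kilobase of exon. In WT P15 the order of the mean CPM per kilobase was Rcvrn (1280), Guca1a (708), Guca1b (637), Slc24a1 (383), Grk1 (240), Gnb5 (218), Rgs9bp (160), Rgs9 (111), Gucy2e (99.3) and Gucy2f (36.7). The ranges of the WT libraries overlapped for the neighbours Grk1 and Gnb5 and for Rgs9 and Gucy2e, so that these are not ordered beyond their spread, and Guca1a (670.3 to 746.1) and Guca1b (603.9 to 669.4) lay next to each other. By group mean, Guca1a was the second most abundant of the 10 in WT P15, the fifth in rd10 P15, the third in rd10 P18 and the second in rd10 P21. Its libraries overlapped with those of Grk1 in rd10 P15 and with those of Guca1b in rd10 P21, so these ranks are not set beyond the spread.

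Other genes of the pathway were taken from a list of 15 partners, among them Rd3, Pdc, Unc119, Aipl1, Cabp4, Sag, Arr3, Rgs7 and Rgs11. All 15 were tested, and 1 was called lower at P15 and P18 and 0 at P21, in edgeR as in DESeq2, with 4, 3 and 8 at an unadjusted p under 0.05 at P15, P18 and P21. That gene was Arr3, the arrestin of cones, which stood at 185 and 155 CPM in the WT retinas, 45.3 and 58.7 in rd10 retinas at P15, 62.3 and 67.3 at P18 and 132 and 160 at P21. The log2 fold change of Arr3 was -1.71 at P15 and -1.39 at P18 (SE 0.18 and edgeR adjusted p = 0.015 in both), and from rd10 P15 to P21 Arr3 rose by 1.49 on the log2 scale (SE 0.18, adjusted p = 0.0193).

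The Arr3 calls were lost without some libraries. At P15 the adjusted p was 0.105 without WT P15 replicate 1, 0.112 and 0.0657 without the first and the second rd10 P15 library, and 0.131 with a term for sex. At P18 it was 0.113 without WT P15 replicate 1, and from rd10 P15 to P21 it was 0.127 and 0.0649 without the first and the second rd10 P15 library.

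Of the other partners, none was called against WT. Rd3, a protein that binds and silences the guanylate cyclases, had log2 fold changes of -0.13, -0.21 and -0.37 at P15, P18 and P21 (edgeR adjusted p = 0.773, 0.48 and 0.346). Sag, the rod arrestin that binds what Grk1 has phosphorylated, had -0.02, -0.30 and -0.62 (adjusted p = 0.977, 0.306 and 0.118). Pdc, phosducin, which binds the transducin beta-gamma subunits, had 0.01, -0.64 and -0.65 (adjusted p = 0.995, 0.0765 and 0.122). The median log2 fold change of the 15 was -0.13, -0.18 and -0.24.

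Relatives of the 10 genes by protein family formed a list of 27, of which 26 were tested. They are other guanylate cyclase receptors, neuronal calcium sensors, G protein-coupled receptor kinases, exchangers of the Slc24 family, RGS proteins of the same subfamily and beta subunits. At each age 0 of the 26 were called against WT in edgeR and 0 in DESeq2, with 3, 5 and 4 at an unadjusted p under 0.05 and medians of -0.01, 0.02 and 0.09. At P18 the adjusted p was under 0.05 without the fold threshold being reached for Gnb1, the transducin beta subunit of rods (log2 fold change -0.98, edgeR adjusted p = 0.0321), and Gnb3, that of cones (0.80, adjusted p = 0.0291).

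Of the 10 rod phototransduction genes 0, 0 and 2 were called lower at P15, P18 and P21 in edgeR and 1, 1 and 6 in DESeq2, with 6, 6 and 10 at an unadjusted p under 0.05. Those called at P21 in edgeR were Gnat1, rod transducin (log2 fold change -1.15, adjusted p = 0.0332 in edgeR), and Cngb1, a rod channel subunit (-1.06, adjusted p = 0.0445). Both calls were lost without any one of the WT P15 and rd10 P15 libraries or rd10 P21 replicate 1 (adjusted p = 0.0759 to 0.198 for Gnat1 and 0.0854 to 0.283 for Cngb1), and that of Cngb1 also without rd10 P21 replicate 2 (adjusted p = 0.0544), with a term for sex (adjusted p = 0.0765) and, for its fold change of -0.95, with scaling by library size alone. Of the 11 cone phototransduction genes 1, 1 and 0 were called lower in edgeR, Arr3 each time, and 2, 1 and 0 in DESeq2, with 7, 7 and 3 at an unadjusted p under 0.05. The median log2 fold change of the 11 was -0.62 at P15, -0.52 at P18 and 0.05 at P21. All 11 were higher in rd10 P21 than in rd10 P15, with a median of 0.55, and 1 of them, Arr3, was called.

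Summed levels of markers of other cell types differed between these groups. The 6 genes of reactive Müller glia, among them Gfap, summed to 76.4 to 97.1 CPM in WT retinas, 49.7 to 51.9 in rd10 retinas at P15, 796 to 930 at P18 and 381 to 473 at P21. The 6 microglia genes summed to 34.0 to 34.1, 52.8 to 57.1, 107 to 119 and 91.5 to 170 CPM in the same order. The 5 red blood cell genes summed to 177 to 188, 67.1 to 84.6, 56.8 to 160 and 125 to 133 CPM, with 0 of 5 called against WT at any age in edgeR and 4, 0 and 0 at an unadjusted p under 0.05. The 5 endothelium genes summed to 226 to 292, 301 to 354, 241 to 298 and 376 to 473 CPM, with 1, 1 and 0 called higher at P15, P18 and P21. The summed level of the 10 genes was 10406 to 12120 CPM in the WT libraries and 5419 to 7776 in the 6 rd10 libraries, and the part of these markers in the differences was not tested.

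The genes whose levels ran most like Guca1a over the 8 libraries, by the root mean square difference of log2 CPM centred on each gene's mean, were Cabyr (0.201), Ppp1r26 (0.25), the unnamed identifier ENSMUSG00000120043 (0.26), A930036K24Rik (0.265) and 2810030D12Rik (0.265). They were far less abundant than Guca1a. The highest was A930036K24Rik, with 34.0 and 31.3 CPM in the WT retinas and 6.40 and 11.6 in rd10 retinas at P15. Cabyr, the closest, was at 2.365 and 3.27 CPM in the WT retinas and 0.4455 and 0.6345 in rd10 retinas at P15. Its place as the closest thus rests on low levels. Among the 10 genes the nearest to Guca1a was its neighbour Guca1b, at 0.537, with 133 of the 16206 genes compared lying closer. Rgs9bp followed at 0.568 and Grk1 at 0.59, and Rgs9 was the farthest at 1.11.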

How the data were processed

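Whole-retina poly(A) RNA from 8 mice (WT P15 and rd10 P15, P18 and P21, 2 libraries each) was sequenced on an Illumina platform. The deposited values are raw counts per Ensembl gene, whole numbers without normalization. HISAT2 is named in the submitters' processing notes, while counting tool, genome build, annotation and strand setting were not given in the sources used here. Positions, symbols and exon lengths were taken from GENCODE M21 (GRCm38) and promoters from RefSeq.

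Genes were filtered with filterByExpr (minimum count 10, minimum total count 15), which left 20457, and tested with edgeR 4.0.16 (R 4.3.3): TMM scaling, robust quasi-likelihood fit to all 8 libraries, group as the only term, Benjamini-Hochberg adjustment. A call needed a log2 fold change beyond 1 in size and an adjusted p below 0.05. DESeq2 1.42.0, other scalings, no filter, a replicate block, a term for sex, the 4 libraries compared alone and each library left out were alternatives. The steps were tested on simulated data. Log2 CPM used a prior count of 2.

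The genes and lists were chosen with earlier results of these data known. All 10 genes are named, genes of the lists may be named with the count over their list (some list genes are not reported here), and the 5 genes most like Guca1a were taken by root mean square difference among genes with a mean of at least 1 CPM. P-values rest on the spread between the 2 retinas of a group, pooled over all 4 groups and drawn towards that of other genes. At P18 and P21 this spread is also that between a male and a female retina.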

Additional observations from a re-analysis of the deposited data

Results flagged for a closer look

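Rcvrn was flagged because its libraries lay on one side of WT at one age of rd10 retina and on the opposite side at the others: both rd10 P15 libraries were above both WT libraries, and both libraries were below them at P18, with a log2 fold change of -0.34 (-0.3371 unrounded), and at P21, with -0.66 (-0.6604 unrounded). The tests of the difference itself, rd10 P18 and rd10 P21 against rd10 P15, gave adjusted p = 0.222 and 0.081 in edgeR and did not pass.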

How the results depend on the processing

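Of 850 recomputed log2 fold changes, over 50 changes of the 10 genes, 5 changed sign. With a term for sex these were Gucy2f at P15 (0.42), Rgs9 at P15 (0.87) and P21 (0.14) against WT, and Rgs9bp from rd10 P15 to P21 (-0.16). The term is estimated from P18 and P21 alone, where replicate 1 is the male. The P18 pair is the one that differed by gene length, with gaps of -2.36 for Rgs9 and -1.56 for Gucy2f. The term for sex therefore also takes in that difference. Rgs9bp from P15 to P21 was also -0.13 without rd10 P21 replicate 2, and ranged from -0.13 to 0.21 with a library left out. The number of the 9 genes called at P15 was 0 throughout. At P18, where it was 4, it was 5 with DESeq2, 3 with scaling by library size alone, 2 with the term for sex, 0 with the 4 libraries alone, 3 with the replicate block, and 0 to 6 with a library left out. At P21, where it was 1, it was 2 with DESeq2, without the filter, with the 4 libraries alone and with an exon length or gene span trend removed, 0 with the term for sex and with the replicate block, and 0 to 2 with a library left out. With the exon length trend removed, the change of Guca1a from rd10 P15 to P21 was 1.10, given with no test. The P21 calls of Gnat1 and Cngb1 were lost with the replicate block (adjusted p = 0.0579 and 0.0752). Same-numbered libraries did not deviate together (r between -0.02 and 0.06), so the numbers were not taken to pair the retinas. With scaling by library size alone the median over the tested genes of the log2 change from WT lay at 0.135 for P18 and 0.112 for P21, beside 0.0113 and 0.000965. Relative to the rod identity list in place of the rod phototransduction list, the P21 differences moved to 0.38 for Grk1, -0.03 for Gucy2e, -0.03 for Gucy2f, 0.33 for Rgs9, 0.04 for Rgs9bp and -0.27 for Slc24a1, and that of Rgs9 at P15 to -0.09. Levels per kilobase differ from CPM by construction. The 10 genes had 1597 to 63630 counts per library, and each group had 2 retinas. The causes of these shifts were not tested.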
